A study of Mus musculus with 8 samples.

Results

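The 9 genes described here encode the receptor subunits and ligands of the gp130 cytokine family that were measured in mouse primary myotubes. They were chosen by name from the 53647 gene identifiers of the count files, and all 9 passed the filter on low counts. Il6st, Osmr and Lifr encode the signal-transducing receptor chains, Il6ra, Il11ra1 and Cntfr the ligand-binding chains, and Lif, Il6 and Clcf1 ligands. The cells were wild-type (WT) myoblasts from limb muscle of pups 2 to 3 days old, grown in 20% fetal bovine serum with bFGF, a fibroblast growth factor, at 2.5 ng/ml and then differentiated in medium with 5% horse serum. Myotubes received for 48 h one of 3 cytokines at 250 ng/ml, namely interleukin 6 (IL6), leukaemia inhibitory factor (LIF) or oncostatin M (OSM), or served as the control. Every group was harvested 72 h after differentiation, and each of the 4 groups had 2 libraries. The labels do not say whether the libraries of a group came from separate animals or dishes, so p-values measure only the spread between these libraries, which may be technical.

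Cytokines of this family signal through gp130, the product of Il6st, which is present on most cell types. IL6 first binds the IL6 receptor (Il6ra) and the pair then engages gp130, LIF brings the LIF receptor (Lifr) together with gp130, and mouse OSM acts mainly through the OSM receptor (Osmr) paired with gp130. Janus kinases bound to the receptor tails then phosphorylate STAT transcription factors, STAT3 foremost, and the inhibitor SOCS3 binds gp130 and dampens the signal. In muscle, members of the family are known for roles in regeneration and in wasting.

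Libraries held 29482077 to 30025471 counts in genes, and 3 counts, the limit that an observed 0 allows, corresponded to 0.0992 to 0.103 CPM (counts scaled to a common library total). Replicates differed by more than counting error in every group (chi-square per gene 2.97 to 12). Each of the 8 myotube markers had at least 2252 counts per library. Together they summed to 22370 and 21580 CPM in control and 18380 and 21110 with IL6. The sums were 21110 and 19890 CPM with LIF and 19290 and 19190 with OSM, so every treated library was below both controls. Of the 8 markers, desmin (Des) rose with LIF (log2 change 0.55, edgeR adjusted p = 0.000181) and with OSM (0.30, adjusted p = 0.00411), and Myh8 fell with both. The other markers were lower with OSM and with LIF, and none of them passed the threshold. The 4 myoblast markers summed to 424.8 and 442.6 CPM in control and to 241.9 and 242.1 CPM with OSM, where Pax7 and Myf5 rose and the proliferation marker Mki67 fell by 2.02 on the log2 scale (edgeR adjusted p = 2.1e-08). With LIF they summed to 349.5 and 331.9 CPM, and with IL6 to 402.8 and 394.4 CPM. Mki67 fell by 0.57 with LIF (edgeR adjusted p = 0.0021). It averaged 280 CPM in control, 248 with IL6, 189 with LIF and 69.1 with OSM. Of the 4 markers, Mki67 was the only 1 called lower with OSM or with LIF. With LIF the log2 differences of Pax7, Myf5 and Myod1 were 0.13, 0.33 and −0.091, none of them called. The 7 fibroblast markers summed to 353.1 and 214.7 CPM in control, 122 and 204.5 with IL6, 221.9 and 154.3 with LIF, and 102.1 and 121.4 with OSM. Most of these sums was Col1a1, which averaged 239 CPM in control and 78.4 with OSM, a difference not called (log2 −1.61, SE 0.47, edgeR adjusted p = 0.0858). Of the 5 fibroblast markers tested, Pdgfra rose and Pdgfrb fell with OSM. Col1a2 and Dcn did not fall with OSM (log2 differences 0.29 and 0.17, not called). Lum had no count in any library and Thy1 at most 1. The 6 macrophage markers summed to 2.44 and 2.89 CPM in control and 5.82 and 4.73 with OSM. With IL6 they summed to 3.8 and 3.2 CPM and with LIF to 3.4 and 3.7, so every treated library was above both controls. Cd68 rose with OSM (log2 change 1.03, edgeR adjusted p = 0.00186), while Adgre1 had at most 1 count and Ptprc at most 3 counts per library. The endothelial and Schwann cell lists stayed within 1.06 to 1.91 and 1.72 to 2.96 CPM. The part of these other cells in the receptor changes was not tested, and in bulk RNA fewer cells of a type and less RNA per cell cannot be told apart.

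With OSM, 3 receptor genes rose: Osmr 1.53-fold, Lifr 1.37-fold and Il6ra 2.01-fold. With LIF, Osmr rose 1.6-fold and Il6ra 1.52-fold. The gene for the shared subunit, Il6st, passed the test with neither cytokine, and no ligand gene did. With IL6 none of the 9 genes passed. In the quasi-likelihood test of edgeR, 3 of 9 genes were called at an adjusted p under 0.05 for OSM against control, where 21.4% of the 15603 tested genes were called (10.8% higher). For LIF against control it was 2 of 9, beside 7.66% of all tested genes (4.2% higher). For IL6 against control it was 0 of 9, beside 0% of all tested genes. In edgeR 2 of the 9 (Osmr and Il11ra1) and 795 of all genes had an unadjusted p under 0.05. DESeq2 called 17 genes in all and 0 of the 9. It gave Il6ra, Cntfr, Il6 and Clcf1 no adjusted p in this comparison, so it could not call them. Limma-voom called 0 of the 9 and 0 of all genes. The 3 comparisons share the 2 control libraries, so their values stand side by side and are not independent.

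**Figure D1:**
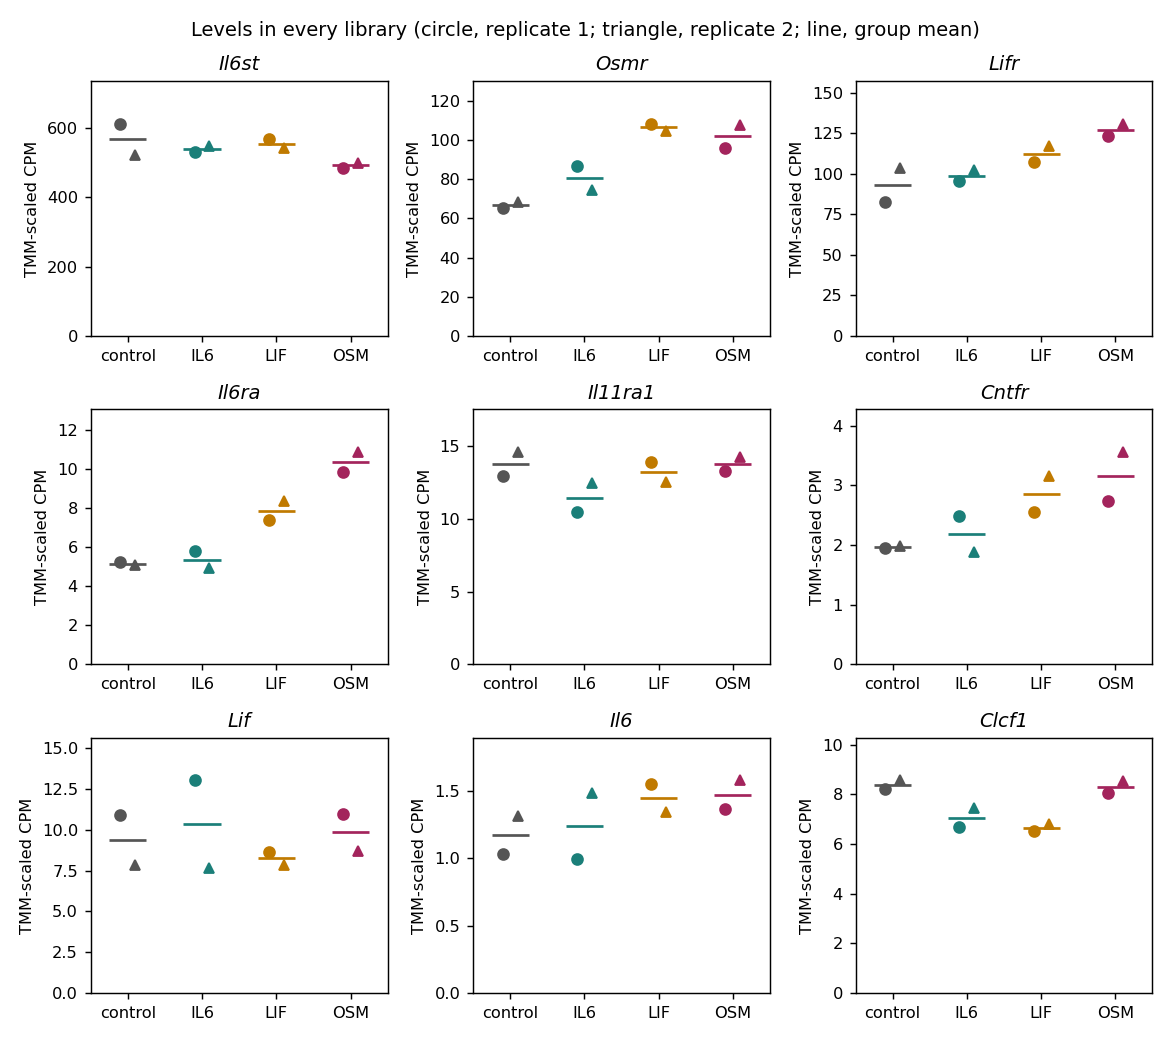
Levels of the 9 genes in every library, in TMM-scaled CPM (TMM, a scaling between libraries by trimmed means), with 1 panel per gene and each axis starting at 0; circles are replicate 1, triangles replicate 2, and lines the mean of the 2 libraries. Osmr and Il6ra are higher in both LIF and both OSM libraries than in both control libraries, and Il6st spans 485.7 to 613 CPM over all groups.

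The promoters of the 3 genes that rose with OSM and of Il6st, which did not, are shown because they let the windows of genes that moved together be set beside that of their common partner. The sequences come from RefSeq on GRCm38.p6 and run 5′ to 3′ on the strand of the gene, from 250 bases before to 50 bases after the annotated start. Capitals mark matches to 4 motifs searched on both strands. They are TTCNNNGAA, bound by STAT factors, and TGANTCA, a loose form of the AP-1 motif with any middle base. CAGCTG is an E-box bound by myogenic factors, and GGGCGG is bound by Sp factors. The windows are Osmr at chr15:6874264-6874563 on the minus strand, Lifr at chr15:7129322-7129621 on the plus strand, Il6ra at chr3:89913147-89913446 on the minus strand and Il6st at chr13:112463820-112464119 on the plus strand.
Osmr: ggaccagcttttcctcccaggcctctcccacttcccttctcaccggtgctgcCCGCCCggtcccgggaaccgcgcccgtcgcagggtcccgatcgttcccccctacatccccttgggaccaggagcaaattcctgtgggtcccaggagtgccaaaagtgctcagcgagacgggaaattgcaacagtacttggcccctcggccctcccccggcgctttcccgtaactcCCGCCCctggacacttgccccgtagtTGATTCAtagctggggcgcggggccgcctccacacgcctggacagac
Lifr: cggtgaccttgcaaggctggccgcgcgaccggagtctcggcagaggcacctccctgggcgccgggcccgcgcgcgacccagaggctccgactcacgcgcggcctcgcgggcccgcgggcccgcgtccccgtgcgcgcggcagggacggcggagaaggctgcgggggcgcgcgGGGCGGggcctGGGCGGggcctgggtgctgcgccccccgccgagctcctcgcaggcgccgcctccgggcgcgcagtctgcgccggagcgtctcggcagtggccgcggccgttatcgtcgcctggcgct
Il6ra: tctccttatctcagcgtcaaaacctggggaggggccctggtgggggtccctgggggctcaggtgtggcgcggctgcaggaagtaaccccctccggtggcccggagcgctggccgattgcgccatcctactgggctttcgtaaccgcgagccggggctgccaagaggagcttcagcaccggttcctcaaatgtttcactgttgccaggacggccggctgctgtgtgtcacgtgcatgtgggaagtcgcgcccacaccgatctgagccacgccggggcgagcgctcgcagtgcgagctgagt
Il6st: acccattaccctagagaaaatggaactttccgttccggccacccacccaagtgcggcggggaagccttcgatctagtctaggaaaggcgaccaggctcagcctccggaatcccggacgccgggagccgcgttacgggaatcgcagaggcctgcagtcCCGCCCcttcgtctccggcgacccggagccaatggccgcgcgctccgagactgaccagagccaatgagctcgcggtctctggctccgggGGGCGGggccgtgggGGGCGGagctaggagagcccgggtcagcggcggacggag

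None of these 4 windows held TTCNNNGAA, which 8.3% of the 32851 promoters of the RefSeq table hold; this says only that these letters are not in these windows. The Osmr window held 1 match to TGANTCA, spelled TGATTCA, beginning at base 254 of the window. Of all promoters, 7.8% hold TGANTCA with any middle base. Whether AP-1 binds the spelling TGATTCA was not tested. No window of the 4 held CAGCTG, found in 16.3% of promoters. The GC-rich motif GGGCGG, found in 35.7% of promoters, occurred 2 times in the Osmr window, 2 times in the Lifr window and 3 times in the Il6st window, and was not in the Il6ra window. GC content was 66% for Osmr, 81.3% for Lifr, 66% for Il6ra and 68.3% for Il6st, against a median of 52.7% over all promoters. The table held windows for 8 of the 9 genes. It held 2 windows for Lifr, of which the other, at chr15:7140292-7140591, had 1 CAGCTG and 53.3% GC. Among the ligand genes, the Lif window held TGACTCA and the Il6 window TGAGTCA, both matches to TGANTCA. Osmr and Lifr lie next to each other on chromosome 15 with no protein-coding gene between them, and Lif lies next to Osm on chromosome 11.

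Osmr (ENSMUSG00000022146) encodes the chain that pairs with gp130 to bind OSM. It had 65.06 and 68.2 CPM in the control libraries and 86.86 and 74.26 CPM with IL6. With LIF it had 108.3 and 104.4 CPM, and with OSM 95.82 and 107.6 CPM. All LIF and OSM libraries lay above all control and IL6 libraries, and both IL6 libraries lay above both controls. The log2 change against control was 0.61 with OSM (SE 0.082, 95% interval 0.434 to 0.787, edgeR adjusted p = 0.000134). With LIF it was 0.67 (SE 0.082, 95% interval 0.498 to 0.851, edgeR adjusted p = 0.000307). With IL6 it was 0.27 (SE 0.082, 95% interval 0.0969 to 0.451, edgeR unadjusted p = 0.00531, adjusted p = 0.943). Leaving out IL6 replicate 2, the lower of the IL6 libraries, gave 0.38 and an edgeR adjusted p of 0.0347, with adjusted p-values from 0.0347 to 1 over the alternatives, so the IL6 value depends on which library is kept.

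Lifr (ENSMUSG00000054263) encodes the chain that LIF binds and that pairs with gp130. It had 82.66 and 103.3 CPM in control, where the libraries were far apart, and 95.39 and 102.3 CPM with IL6. It had 107.2 and 117.2 CPM with LIF and 123.4 and 130.9 CPM with OSM. The OSM libraries were above every other library, the LIF libraries were above both controls, and the IL6 libraries lay between the 2 controls. The rise with OSM was 0.45 on the log2 scale (SE 0.093, 95% interval 0.25 to 0.654, edgeR adjusted p = 0.00417). Without OSM replicate 2 this call was lost (log2 change 0.41, edgeR adjusted p = 0.0524, the highest over the alternatives, whose lowest was 5.05e-09). Without control replicate 1 the change was 0.30 and without control replicate 2 it was 0.63, with both calls kept. With LIF the change was 0.27 (SE 0.093, 95% interval 0.0683 to 0.473, edgeR adjusted p = 0.111). It passed without control replicate 2, the higher control library (log2 change 0.45, edgeR adjusted p = 0.00642), and without the filter on low counts (adjusted p = 0.00399), and adjusted p-values ran from 0.00399 to 0.533 over the alternatives. With IL6 it was 0.088 (95% interval −0.115 to 0.291, edgeR adjusted p = 0.959).

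Il6st (ENSMUSG00000021756), the gp130 gene, had 613 and 521.7 CPM in control and 530.9 and 549.3 CPM with IL6. It had 567.2 and 542.7 CPM with LIF and 485.7 and 498.8 CPM with OSM. Both OSM libraries were below every other library, and the control libraries spanned the IL6 and LIF libraries. The log2 difference from control was −0.20 with OSM (SE 0.073, 95% interval −0.363 to −0.0467), which missed the threshold (edgeR adjusted p = 0.0644). The control libraries decide this value. Without control replicate 2 it was −0.31 (edgeR adjusted p = 0.00537) and without control replicate 1 it was −0.084 (adjusted p = 0.471), the extremes over the alternatives. It also passed without IL6 replicate 1 (adjusted p = 0.0408) and without IL6 replicate 2 (adjusted p = 0.0409), libraries of neither group compared. With LIF the difference was −0.032 (95% interval −0.19 to 0.126, edgeR adjusted p = 0.87) and with IL6 −0.071 (95% interval −0.229 to 0.0869, adjusted p = 0.959).

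Il6ra (ENSMUSG00000027947) encodes the chain that captures IL6 before gp130 joins. It had 5.25 and 5.07 CPM in control and 5.79 and 4.92 CPM with IL6. With LIF it had 7.4 and 8.34 CPM, and with OSM 9.85 and 10.9 CPM. The order was the same in every library of these groups: OSM above LIF, and LIF above control and IL6, whose libraries overlapped. These levels rest on 146 to 324 counts per library. The rise was 1.01 on the log2 scale with OSM (SE 0.14, 95% interval 0.708 to 1.3, edgeR adjusted p = 0.000158). With LIF it was 0.61 (SE 0.14, 95% interval 0.305 to 0.913, edgeR adjusted p = 0.0175), a call that needed all 4 libraries: it was lost without control replicate 1 (adjusted p = 0.0582), control replicate 2 (0.0738), LIF replicate 1 (0.0646) or LIF replicate 2 (0.21), with 0.00238 the lowest adjusted p over the alternatives. With IL6, its own ligand, the change was 0.054 (SE 0.15, 95% interval −0.261 to 0.37, edgeR adjusted p = 0.988). Of the 50-base stretches of its longest transcript, 2.3% also occur in Gm42809, a gene on the opposite strand that had at most 8 counts per library.

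Il11ra1 (ENSMUSG00000073889) encodes the chain that captures interleukin 11. It had 13 and 14.6 CPM in control, 10.5 and 12.5 CPM with IL6, 13.9 and 12.6 CPM with LIF and 13.3 and 14.3 CPM with OSM. IL6 was the only group with both libraries below both controls, and LIF replicate 2 was below them too. The log2 difference with IL6 was −0.27 (SE 0.12, 95% interval −0.526 to −0.00788, edgeR unadjusted p = 0.0443, adjusted p = 0.943). With OSM it was 0.0011 (95% interval −0.254 to 0.257, edgeR adjusted p = 1) and with LIF −0.059 (95% interval −0.315 to 0.197, adjusted p = 0.849). Its level is uncertain because 60.02% of its 50-base stretches also occur in the near-copies Il11ra2 and Gm13305, which both had 0 counts in all 8 libraries.

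Cntfr (ENSMUSG00000028444) encodes the chain that captures ciliary neurotrophic factor and cardiotrophin-like cytokine factor 1. It had 1.96 and 1.98 CPM in control, 2.48 and 1.89 CPM with IL6, 2.56 and 3.15 CPM with LIF and 2.74 and 3.56 CPM with OSM, from 56 to 106 counts per library. Every LIF and OSM library was above every control and IL6 library. Neither difference from control passed the test. With OSM the log2 difference was 0.68 (SE 0.23, 95% interval 0.182 to 1.17, edgeR adjusted p = 0.0517), and with LIF it was 0.53 (SE 0.23, 95% interval 0.0347 to 1.03, edgeR adjusted p = 0.21). The OSM value passed in 5 alternatives, among them those without IL6 replicate 1 (adjusted p = 0.0321) or IL6 replicate 2 (0.0317), and adjusted p-values ran to 0.332.

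Lif (ENSMUSG00000034394) encodes LIF itself. It had 10.9 and 7.86 CPM in control, 13 and 7.66 CPM with IL6, 8.64 and 7.87 CPM with LIF and 11 and 8.72 CPM with OSM. All groups overlapped the controls. The log2 differences from control were 0.071 with OSM (95% interval −0.469 to 0.61), −0.18 with LIF (−0.731 to 0.364) and 0.14 with IL6 (−0.394 to 0.679), with edgeR adjusted p-values of 0.757 to 0.971.

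Il6 (ENSMUSG00000025746) encodes IL6 and was near the low end of what was tested, with 30 to 47 counts per library. Its levels were 1.03 and 1.31 CPM in control, 0.992 and 1.48 CPM with IL6, 1.55 and 1.34 CPM with LIF and 1.37 and 1.58 CPM with OSM. The LIF and OSM libraries were above both controls, by little. The log2 differences were 0.33 with OSM (95% interval −0.295 to 0.957, edgeR adjusted p = 0.468), 0.30 with LIF (−0.325 to 0.928, adjusted p = 0.636) and 0.079 with IL6 (−0.56 to 0.719, adjusted p = 0.993). Each of these intervals includes both 0 and the change that Osmr showed with the same cytokine.

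Clcf1 (ENSMUSG00000040663) encodes cardiotrophin-like cytokine factor 1, a ligand of the Cntfr complex. It had 8.2 and 8.56 CPM in control, 6.68 and 7.45 CPM with IL6, 6.53 and 6.8 CPM with LIF and 8.07 and 8.56 CPM with OSM. The IL6 and LIF libraries were below both control and both OSM libraries. The log2 difference from control was −0.33 with LIF (SE 0.13, 95% interval −0.603 to −0.0597, edgeR unadjusted p = 0.0206, adjusted p = 0.148), −0.25 with IL6 (95% interval −0.516 to 0.0234, adjusted p = 0.943) and −0.012 with OSM (95% interval −0.278 to 0.255, adjusted p = 0.961). Its transcript shares 7.54% of its 50-base stretches with AC109138.7 on the same strand, which had at most 1 count per library.

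**Figure D2:**
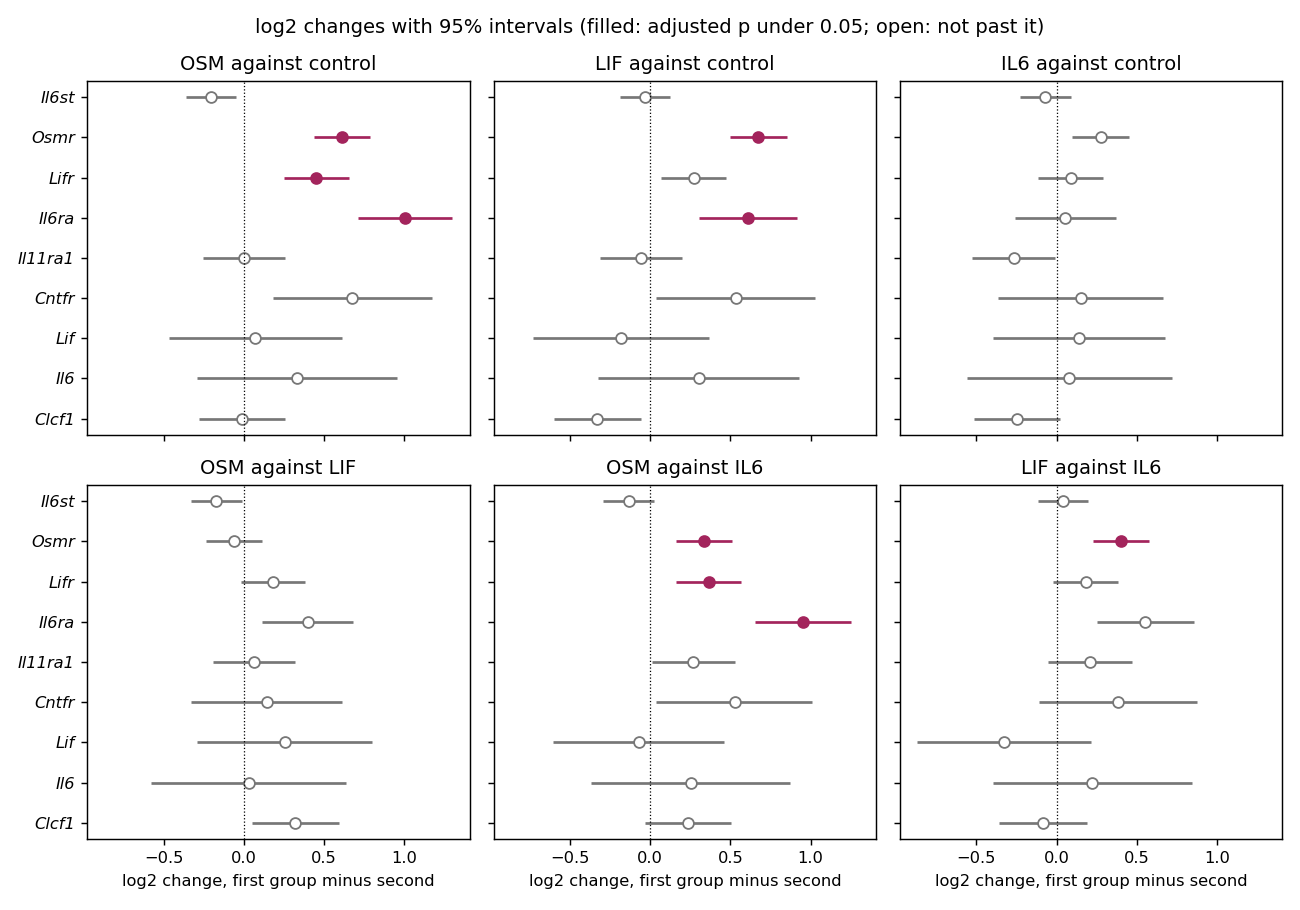
Log2 changes of the 9 genes in the 6 comparisons, as points with 95% intervals; filled points had an adjusted p under 0.05 in edgeR and open points did not, and the dotted line is no difference. The filled points are Osmr, Lifr and Il6ra with OSM, Osmr and Il6ra with LIF, the same 3 genes as the first for OSM against IL6, and Osmr for LIF against IL6.

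Set directly against each other, OSM and LIF gave no called difference among the 9 genes in edgeR, beside 8.04% of all tested genes (4.01% higher with OSM); 3 of the 9 had an unadjusted p under 0.05, and DESeq2 and limma-voom also called 0 of the 9. Il6ra was 0.40 higher on the log2 scale with OSM than with LIF (95% interval 0.112 to 0.682, edgeR adjusted p = 0.091). Il6st was −0.17 (95% interval −0.331 to −0.015, adjusted p = 0.194) and Clcf1 0.32 (95% interval 0.048 to 0.591, adjusted p = 0.16). Lifr differed by 0.18 (95% interval −0.0196 to 0.382, adjusted p = 0.301). Osmr differed by −0.064, with an interval of −0.238 to 0.11 that leaves room for a small difference in either direction (edgeR adjusted p = 0.734). In a fit of the OSM and LIF libraries alone, 3 genes were called: Il6st (adjusted p = 0.00647), Lifr (0.0126) and Il6ra (0.0169). The fit of all 8 libraries called none of them, so these calls rest on the choice of libraries in the fit. The differences kept their sign over 15 alternatives. On the log2 scale they ran from −0.2045 to −0.1409 for Il6st, 0.1183 to 0.2472 for Lifr and 0.3131 to 0.4858 for Il6ra.

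Against IL6, OSM gave higher levels of 3 of the 9 genes, beside 8.02% of all tested genes called higher and 15.5% called in either direction. The log2 difference was 0.95 for Il6ra (SE 0.14, 95% interval 0.655 to 1.25, edgeR adjusted p = 0.000306). For Osmr it was 0.34 (SE 0.081, 95% interval 0.161 to 0.511, edgeR adjusted p = 0.0124). For Lifr it was 0.36 (SE 0.093, 95% interval 0.162 to 0.566, edgeR adjusted p = 0.0185). The Il6ra call held in each of 15 alternatives, with adjusted p-values up to 0.00927. The Osmr call was lost without IL6 replicate 2 (adjusted p = 0.0657) or OSM replicate 2 (0.166), and its lowest adjusted p was 5.01e-05. The Lifr call was lost without IL6 replicate 1 (0.0865), OSM replicate 1 (0.0753) or OSM replicate 2 (0.148), and its lowest was 4.85e-06.

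LIF against IL6 gave 1 called gene of 9, beside 2.78% of all tested genes (1.76% higher with LIF). This was Osmr, 0.40 higher with LIF on the log2 scale (SE 0.081, 95% interval 0.225 to 0.575, edgeR adjusted p = 0.0205). The call was lost without IL6 replicate 2 (adjusted p = 0.0509), LIF replicate 1 (0.224) or LIF replicate 2 (0.145), and its lowest adjusted p over the alternatives was 4.47e-06. Il6ra was 0.55 higher with LIF (SE 0.14, 95% interval 0.252 to 0.857), just outside the threshold (edgeR adjusted p = 0.055). It passed without control replicate 1 (0.0469) or control replicate 2 (0.0461), and over the alternatives adjusted p-values ran from 0.0118 to 0.43. Lifr differed by 0.18 (95% interval −0.0193 to 0.385, edgeR adjusted p = 0.401).

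Counting the genes whose 2 libraries of one group lay beyond both libraries of the other gave 6 of 9 for OSM against control, beside 60.9% of all tested genes, and 6 of 9 for LIF against control, beside 52%. For IL6 against control it was 3 of 9, beside 28.2%. It was 5 of 9 for OSM against LIF (56.6% of all tested genes), 7 of 9 for OSM against IL6 (54.3%) and 5 of 9 for LIF against IL6 (43.5%). Lying apart in this way is thus common among all genes and singles out none of the 9. The median log2 change of the 9 genes was 0.33 for OSM, 0.27 for LIF and 0.079 for IL6 against control, and over all tested genes it was −0.0029, −0.0079 and 0.00061. With 9 genes each median is the value of 1 gene, here Il6 for OSM and for IL6 and Lifr for LIF, and none of these was called.

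Levels of different genes were compared per kilobase of merged exons. In control, Il6st stood first with 51.1 ± 5.82 CPM per kilobase (SD, n = 2), followed by Lifr with 8.63 ± 1.35, Osmr with 5.5 ± 0.183 and Il11ra1 with 3.08 ± 0.259. Below them came Clcf1 with 2.2 ± 0.0672 and Lif with 2.16 ± 0.496, which overlapped each other, then Cntfr with 0.708 ± 0.00643, Il6ra with 0.597 ± 0.0147 and Il6 with 0.482 ± 0.0816. So the gp130 chain was 5.93 times the next subunit, and the IL6-binding chain was the lowest of the 6 receptor genes. Among 15576 tested genes with a length, Il6st was at the 94.5th percentile in control and Il6ra at the 19.6th.

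The order of the first 4 genes was the same in all 4 groups. With OSM, Il6ra reached 1.2 ± 0.0834 CPM per kilobase, the 28.3rd percentile, and overlapped Cntfr at 1.13 ± 0.209. With LIF, Cntfr at 1.02 ± 0.151 and Il6ra at 0.911 ± 0.077 overlapped. With IL6, Il11ra1 overlapped Lif, Lif overlapped Clcf1, and Il6ra at 0.62 ± 0.0707 overlapped Il6 at 0.51 ± 0.143. The order of Osmr and Lifr depends on the length used. With the longest transcript in place of merged exons, Osmr had 12.1 ± 0.403 and Lifr 9.62 ± 1.51 CPM per kilobase in control, the reverse order.

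**Figure D3:**
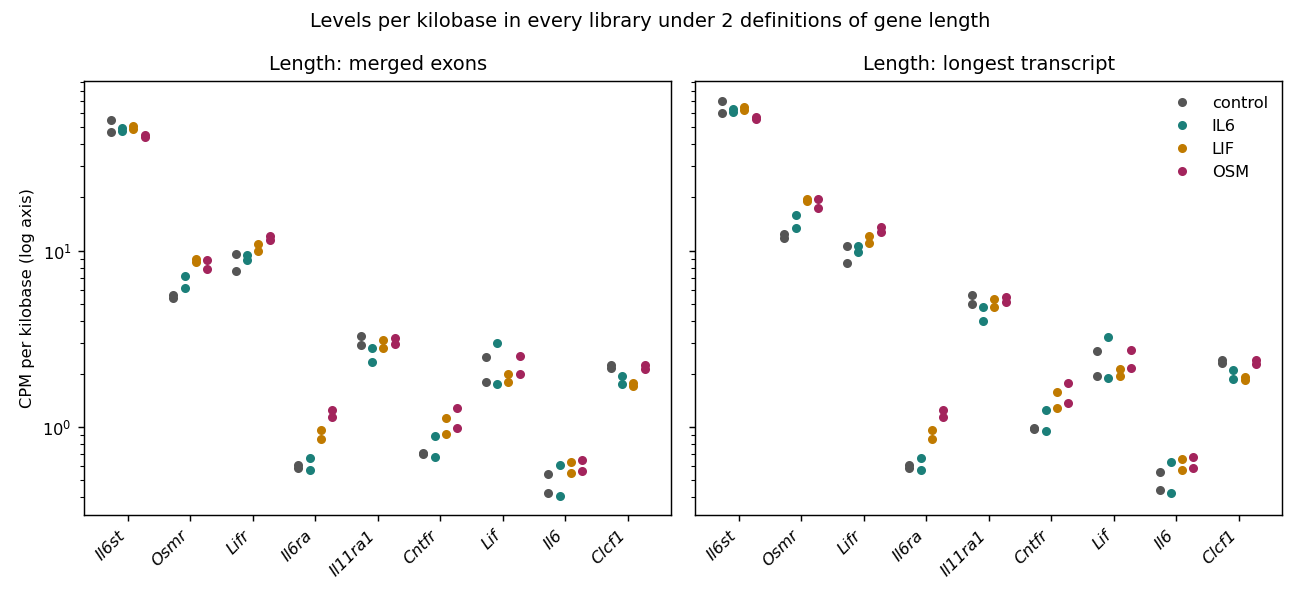
CPM per kilobase of the 9 genes in every library on a log axis, with gene length taken as merged exons (left) or as the longest transcript (right); each point is 1 library and colours are groups. Il6st is the highest gene in both panels, and Osmr moves from below Lifr to above it in control when the longest transcript is used.

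Ratios between the subunits, taken within each library and per kilobase, put the levels of partner chains side by side. The ratio of Il6st to Il6ra was 90.9 and 80.1 in control and 71.4 and 86.9 with IL6. It was 59.7 and 50.7 with LIF and 38.4 and 35.7 with OSM, so all LIF and OSM libraries lay below all control and IL6 libraries. The ratio of Il6st to Osmr was 10.3 and 8.35 in control, 6.67 and 8.07 with IL6, 5.72 and 5.67 with LIF and 5.53 and 5.06 with OSM. Every treated library was below both controls. The ratio of Il6st to Lifr was 7.2 and 4.91 in control, 5.4 and 5.22 with IL6, 5.14 and 4.5 with LIF and 3.82 and 3.7 with OSM. Both OSM libraries were below both controls, as was LIF replicate 2, while the other LIF library and the IL6 libraries lay between them. The ratio of Osmr to Lifr was 0.7 and 0.588 in control, 0.81 and 0.646 with IL6, 0.899 and 0.793 with LIF and 0.691 and 0.731 with OSM, so both LIF libraries were above both controls, as were 1 IL6 and 1 OSM library. These ratios are per kilobase of merged exons, and their size depends on the length used. Per kilobase of the longest transcript, Osmr to Lifr was 1.38 and 1.16 in control, and Il6st to Osmr 5.96 and 4.84. The length of a gene is the same in every library, so the order of libraries does not depend on it. The ratios use the levels tested above, so they were not tested again, and they concern RNA and not receptor protein.

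**Figure D4:**
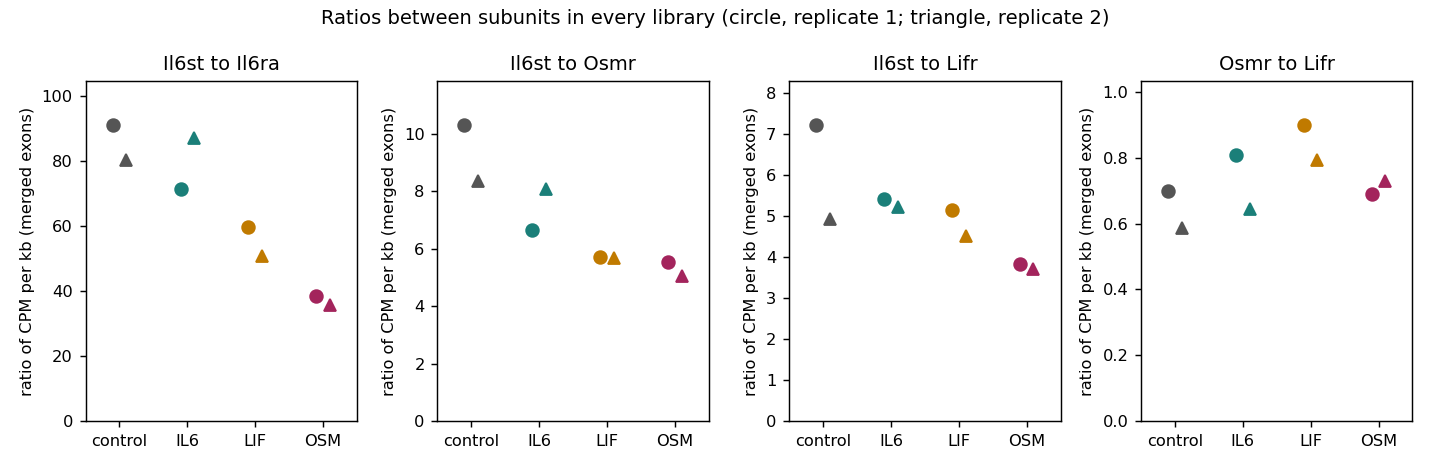
Ratios of CPM per kilobase of merged exons between pairs of receptor subunits in every library, each axis starting at 0; circles are replicate 1 and triangles replicate 2. The ratio of Il6st to Il6ra is 80.1 and 90.9 in control and 35.7 and 38.4 with OSM.

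Of 10 other ligands and receptors of the family, 3 were tested: Il11, Cntf and Ctf1. edgeR called none of the 3 with any cytokine, nor did DESeq2 or limma-voom. For OSM against control 1 of the 3 had an unadjusted p under 0.05, and for LIF and IL6 against control 0 of the 3 did. That 1 gene, named after its value was seen, was Ctf1, which encodes cardiotrophin 1 (log2 difference 0.41 with OSM, SE 0.19, edgeR adjusted p = 0.146). Leaving out either IL6 replicate brought 1 call of the 3 with OSM. Osm had 1 count in 1 control library and none elsewhere, so its RNA was not detectable at this depth in any treated group. Ctf2, Il27, Ebi3, Il27ra, Il31ra and Il11ra2 also had at most 4 counts in any library and were not measured.

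For 16 proteins that signal or feed back at the receptor tails, directly or through partners, all genes were tested. The list is not complete, so its counts cover these 16 only. With OSM 9 of them rose, beside 10.8% of all tested genes called higher. With LIF 5 rose, beside 4.2%, and with IL6 edgeR called none, nor did DESeq2 or limma-voom. Socs3, the feedback inhibitor that binds gp130, rose by 1.37 on the log2 scale with OSM (SE 0.064, edgeR adjusted p = 1.38e-08) and by 1.47 with LIF (SE 0.064, adjusted p = 3.15e-08). With IL6 Socs3 was the only 1 of the 16 with an unadjusted p under 0.05 (log2 difference 0.28, edgeR unadjusted p = 0.000842, adjusted p = 0.514). Stat5a, a STAT factor, rose by 1.09 with OSM and 0.81 with LIF, and Jak2, a receptor-bound kinase, by 0.83 and 0.65. Stat3 rose by 0.27 and 0.32 and Socs2, another SOCS inhibitor, by 0.40 and 0.46. Jak1, the main kinase of gp130, rose with OSM by 0.27. Without OSM replicate 1 the 9 calls with OSM became 5, and without LIF replicate 2 the 5 calls with LIF became 3.

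Of 10 genes for receptor shedding and turnover, all were tested. With OSM 2 rose and 1 fell, and 21.4% of all tested genes were called. With LIF 2 rose and 0 fell, beside 7.66% called, and with IL6 edgeR, DESeq2 and limma-voom called none and 0 of the 10 had an unadjusted p under 0.05. Furin, a proprotein-cleaving protease, rose by 0.90 with OSM (SE 0.062, edgeR adjusted p = 2.84e-07) and by 0.34 with LIF (SE 0.062, adjusted p = 0.00436). Adam10, a protease that sheds membrane proteins, rose by 0.30 and 0.29. Sorl1, a sorting receptor, fell by 1.19 on the log2 scale with OSM (SE 0.23, edgeR adjusted p = 0.00251), and with LIF its difference of −0.73 missed the threshold (adjusted p = 0.0662). The LIF count fell to 1 without LIF replicate 1 and to 0 without LIF replicate 2.

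**Figure D5:**
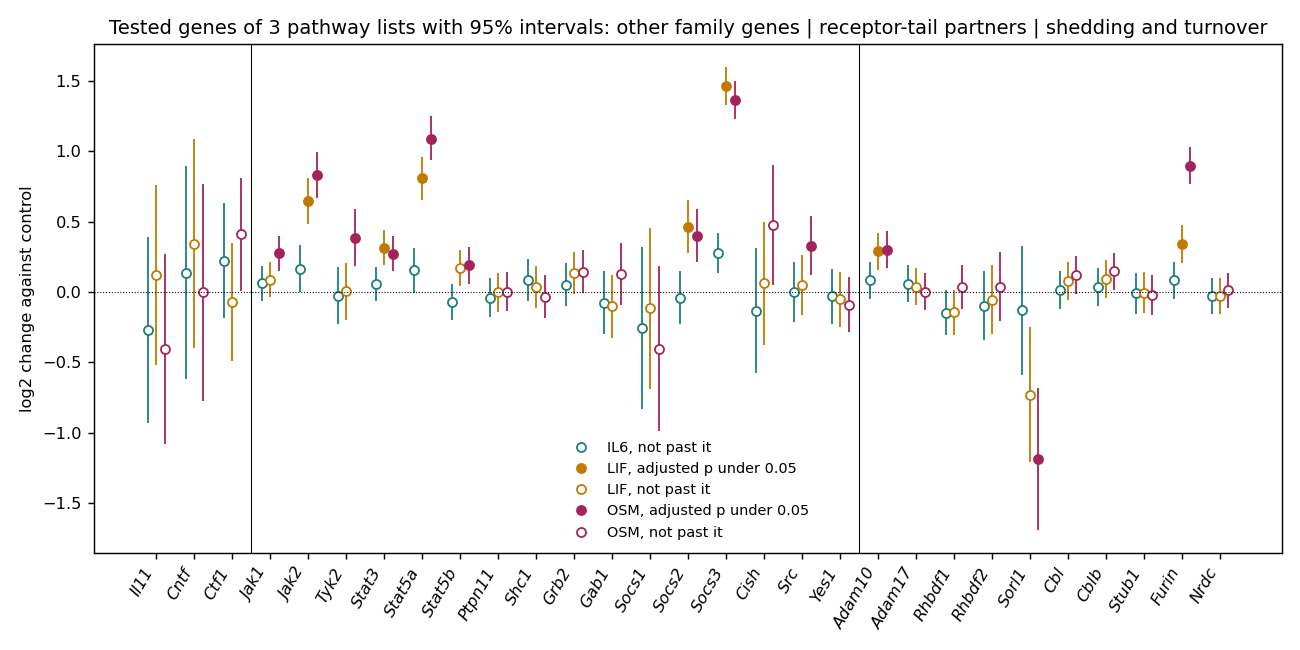
Log2 changes against control with 95% intervals for the tested genes of 3 lists, separated by vertical lines: other family genes, proteins of the receptor tails, and shedding and turnover; filled points had an adjusted p under 0.05 in edgeR. Socs3, Stat5a, Jak2 and Furin lie highest with OSM, and no IL6 point is filled.

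The genes whose levels followed each receptor gene most closely over the 8 libraries were found among 10744 protein-coding genes with at least 100 counts on average, by Pearson r of log2 CPM. The libraries share their treatment groups, so these values describe the pattern and carry no p. For Osmr they were Ipo8 (r = 0.995), Rasal2 (0.982) and Pdlim3 (0.974), and 154 genes exceeded 0.9. For Lifr they were Pxmp4 (0.992), Arsa (0.981) and Rabgef1 (0.98), with 294 genes over 0.9. Il6ra was followed by Htr2a (0.991), Meis1 (0.99) and Slc25a32 (0.987), with 447 genes over 0.9. Htr2a, which encodes a serotonin receptor, averaged 2.22 CPM in control, 3.03 with IL6, 8 with LIF and 21.4 with OSM, the same order as Il6ra over a wider range. Il6st was followed by Kif5b (0.976), Wdr18 (0.974) and Lypd6 (0.972), with 86 genes over 0.9.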

How the data were processed

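RNA was measured in 8 libraries, 2 per group, made with a stranded poly(A) kit per the labels' protocols. The authors deposited raw read counts per gene for each library, which were not normalised. The submitters' processing notes list FastQC 0.11.9, MultiQC 1.12, Trim Galore 0.6.5, STAR 2.7.3a, HTSeq 0.11.1, DESeq2 1.34.0 and the builds GRCm39 and mm39; HTSeq's strand setting and the annotation release are not given in the sources used here. Groups and replicate numbers come from the sample titles. Lines for reads in no gene, in several genes or in several places, 11.7% to 12.7% of each library, were left out of library sizes and tests.

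Counts were tested in R 4.3.3 with edgeR 4.0.16: filterByExpr at a minimum count of 10 (15603 genes kept), TMM scaling, a robust quasi-likelihood fit with 4 group means fitted to the 8 libraries together, which leaves 4 residual degrees of freedom, and 6 contrasts. P-values were adjusted by Benjamini and Hochberg over all tested genes within each contrast, with calls at an adjusted p under 0.05. Alternatives were DESeq2 1.42.0, limma 3.58.1 (voom), other scalings, no filter, a fit of 2 groups, a replicate block and leaving out each library; their use on the list counts was added after seeing the data.

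Of the 53647 identifiers, 52094 are in GENCODE M21 (GRCm38), none of whose coordinates is printed. It gave symbols, exon and transcript lengths, exon overlaps and shared 50-base stretches on either strand. The order of neighbouring genes comes from RefSeq. Promoter windows are RefSeq's on GRCm38.p6. Some genes of the pathway lists are not reported here, and the counts and the plot of the lists leave them out. The 9 genes, the lists and the tests were chosen with earlier results of these data known. Named genes beyond the 9 are, per list, up to 6 genes called against control with the smallest p and those with no more than 10 counts, and the 3 genes most like each of 4 receptor genes (log2 CPM, prior count 2). Limits from counts cover counting error only, since PCR copies of a molecule are counted as separate reads.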

Additional observations from a re-analysis of the deposited data

How the results depend on the processing

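No alternative reversed a called change of the 9 genes. Among the rises called against control, Osmr with OSM, Osmr with LIF and Il6ra with OSM passed in each of 15 alternatives. The count of genes called for OSM against control was 5 without the filter on low counts and 5 with a replicate block, where Il6st (adjusted p = 0.0393) and Cntfr (0.0403) were added, and for LIF against IL6 it was 2 with either, where Il6ra was added (0.0287 with the block). In the fit of only the 2 groups compared it was 3 for OSM against LIF. With the block, Lifr was also called for LIF against control (adjusted p = 0.01); the block changed no other call of the 9 genes. The labels do not say whether replicate numbers pair these libraries. Deviations of same-numbered libraries correlated at 0.00708 to 0.181 between groups, which cannot decide it. Il6st with OSM also passed with library size alone as scaling (adjusted p = 0.044).

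Leaving out 1 library at a time, with a lone library assumed to vary like the other groups, the count of the 9 genes called ran from 2 (without OSM replicate 2) to 5 (without either IL6 replicate) for OSM against control, from 1 (without control replicate 1 or either LIF replicate) to 2 for LIF against control, from 0 to 1 (without IL6 replicate 2) for IL6 against control, from 1 (without OSM replicate 2) to 3 for OSM against IL6, and from 0 (without IL6 replicate 2 or either LIF replicate) to 2 (without either control replicate) for LIF against IL6. It was 0 throughout for OSM against LIF.

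Uncalled differences changed sign in some of these fits. Without each library in turn the log2 differences ranged as follows. For OSM against control they ran from −0.0817 to 0.0983 for Il11ra1, −0.1392 to 0.3257 for Lif and −0.0542 to 0.0297 for Clcf1. For LIF against control they ran from −0.1388 to 0.0893 for Il6st, −0.1415 to 0.0346 for Il11ra1 and −0.3973 to 0.0715 for Lif. For IL6 against control they ran from −0.1804 to 0.0501 for Il6st, −0.0634 to 0.26 for Lifr, −0.0674 to 0.1658 for Il6ra, −0.0597 to 0.333 for Cntfr, −0.2926 to 0.4746 for Lif and −0.2373 to 0.3412 for Il6. For OSM against LIF they ran from −0.1503 to 0.0172 for Osmr, −0.0127 to 0.1359 for Il11ra1, −0.0598 to 0.3179 for Cntfr and −0.0768 to 0.1364 for Il6. For OSM against IL6 they ran from −0.404 to 0.3632 for Lif and −0.0103 to 0.5682 for Il6, and for LIF against IL6 from −0.6581 to 0.1091 for Lif and −0.0398 to 0.5387 for Il6.

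Over all genes, the calls for OSM against control fell from 3335 to 1628 without OSM replicate 1 and to 1852 without OSM replicate 2, and those for LIF against control from 1195 to 429 without LIF replicate 1 and to 310 without LIF replicate 2. For IL6 against control the count was 0 in edgeR, 17 in DESeq2, 97 without the filter, 9 with the replicate block, 14 without control replicate 2, 3 without IL6 replicate 1 and 202 without IL6 replicate 2. For OSM against LIF it was 1255, 2936 in the fit of 2 groups, and 430 to 636 without a LIF or an OSM library. For OSM against IL6 it was 2426, 1096 without OSM replicate 1 and 1312 without OSM replicate 2. For LIF against IL6 it was 434, 985 without the filter, 826 with the block, 712 without IL6 replicate 2, 78 and 94 without LIF replicate 1 and 2, and 231 and 229 without OSM replicate 1 and 2. For OSM against control the count over all genes also rose above 3335 without the filter, with the block and without either IL6 replicate. These were the fits with the most of the 9 genes called, so the higher count among the 9 does not single them out. The cause of these shifts was not tested. The spread of 2 libraries limits the precision for each gene, and counts as well for Il6, Cntfr and Il6ra. Spearman rho for the most alike genes was 0.905 to 1, and each of the 12 stayed among the closest 3 with a prior count of 0.5. By rho, however, Htr2a and Slc25a32 ranked 74 for Il6ra, Rasal2 and Pdlim3 48 for Osmr, and Rabgef1 22 for Lifr. The others ranked from 1 to 11. Which genes are closest thus depends on the measure of correlation.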

Other observations

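Over the 8 libraries the log2 levels of the receptor genes were related to each other to different degrees. These correlations are descriptions over libraries that share treatment groups. Pearson r was 0.925 between Il6ra and Cntfr, 0.892 between Osmr and Cntfr, 0.855 between Lifr and Il6ra, 0.849 between Osmr and Il6ra and 0.764 between Osmr and Lifr. Il6st ran the other way, with r of −0.806 to Lifr, −0.599 to Il6ra, −0.531 to Cntfr and −0.434 to Osmr. Control replicate 1 had both the highest Il6st level (613 CPM) and the lowest Lifr level (82.66 CPM), and r without this library was not computed. Il11ra1 had r of 0.0932 to Cntfr, its chromosome 4 neighbour across 5 other protein-coding genes, 0.067 to Osmr, 0.287 to Il6ra, 0.392 to Lifr and −0.149 to Il6st.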
